A study of Mus musculus with 36 samples.

Results

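The comparison concerns T helper 2 (Th2) cells without TRIM28: 3 samples of Trim28-KO cells (KO) against 3 samples of cells from wild-type littermates (WT), both from mice and both cultured in the condition that the sample names call Th2. These 6 samples, chosen by their titles, are part of a series of 36 expression arrays in 12 groups of 3. Per the labels' protocols, all 6 began as naive CD4 T cells, enriched with magnetic beads and then sorted by flow cytometry. They were stimulated for 72 h with antibody to CD3 on the plate and antibody to CD28 in solution. The other samples are naive cells and cells of the conditions Th0 (stimulation with no named lineage), Th1, Th17 and Treg of the same 2 genotypes. The labels used here give neither the Cre line behind the deletion, nor the cytokines of the Th2 culture, nor the age of the mice. Whether each sample came from its own mouse is not stated either. The p-values therefore measure the spread between samples within the 12 groups, which may be technical.

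TRIM28 (KAP1) represses transcription without binding DNA itself. KRAB-type zinc-finger proteins recruit it to the sequences they recognize. There it gathers the histone methyltransferase SETDB1 and heterochromatin protein 1, and the bound chromatin is silenced, most of all at retrotransposons. Th2 cells are the CD4 T cells that help against worms and take part in allergy. They arise when naive cells receive interleukin-4 through STAT6, turn on the transcription factor GATA3, and secrete interleukins 4, 5 and 13.

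Values are log2 intensities, on which a difference of 1 is a 2-fold change. A gene's change is its mean in KO minus its mean in WT, with the standard error (SE) of a limma fit to all 36 samples. A gene passed at an adjusted p under 0.05 over the 13082 genes with 3 or more samples above 5.26, the median of the whole table. The medians of the 6 Th2 arrays lay between 5.21 and 5.27. Replicates correlated at 0.984 to 0.989 among the KO samples and at 0.979 to 0.994 among the WT samples. Precision is limited by the 3 arrays of each group, and an exact permutation test of 3 against 3 cannot go below a two-sided p of 0.1. In bulk RNA, fewer cells that express a gene and less RNA of it per cell cannot be told apart.

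Trim28 itself had log2 intensities of 6.28, 6.58 and 6.30 in KO Th2 samples, against 9.84, 9.99 and 9.69 in WT Th2 samples. The groups were far apart, with a change of -3.45 (SE 0.16, adjusted p = 1.3e-15), a 10.9-fold fall that is in the direction the labels give. The defining Th2 markers were high in both genotypes. Gata3, the master regulator of the lineage, had 10.44, 10.61 and 10.67 in KO Th2 samples and 10.36, 10.57 and 10.49 in WT Th2 samples. Its means in the other stimulated conditions lay between 7.37 and 9.18 in KO cells and between 6.93 and 8.86 in WT cells. In WT cells, Gata3 was higher in Th2 than in Th0 by 1.84, Il4 by 3.67, Il13 by 4.13, the cytokine gene Il24 by 6.66, the chemokine receptor gene Ccr8 by 2.01 and the steroid synthesis gene Cyp11a1 by 5.46, and each of these passed (17.2% of all genes were called higher in WT Th2 than in WT Th0). In KO Th2 samples Il4 lay between 7.97 and 8.49, while its means in the other stimulated KO conditions lay between 4.01 and 4.38. Il5 was above the filter level in fewer than 3 samples and was not tested, and Il1rl1 was not analysed here. The defining regulators and cytokines read for the other lineages, Tbx21, Ifng, Il17a and Foxp3, did not pass, while other genes of the Th1 and Treg lists did and are given further on. Tbx21, the Th1 regulator, averaged 5.74 in KO and 5.59 in WT. The means of Ifng were 5.24 in KO and 5.40 in WT, those of the Th17 cytokine gene Il17a 3.94 in KO and 4.06 in WT, and those of Foxp3, the Treg regulator, 5.72 in KO and 5.98 in WT. Xist, a transcript of female cells, lay between 3.68 and 3.88 in KO and between 3.62 and 3.81 in WT, below the filter level in all 6.

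**Figure D1:**
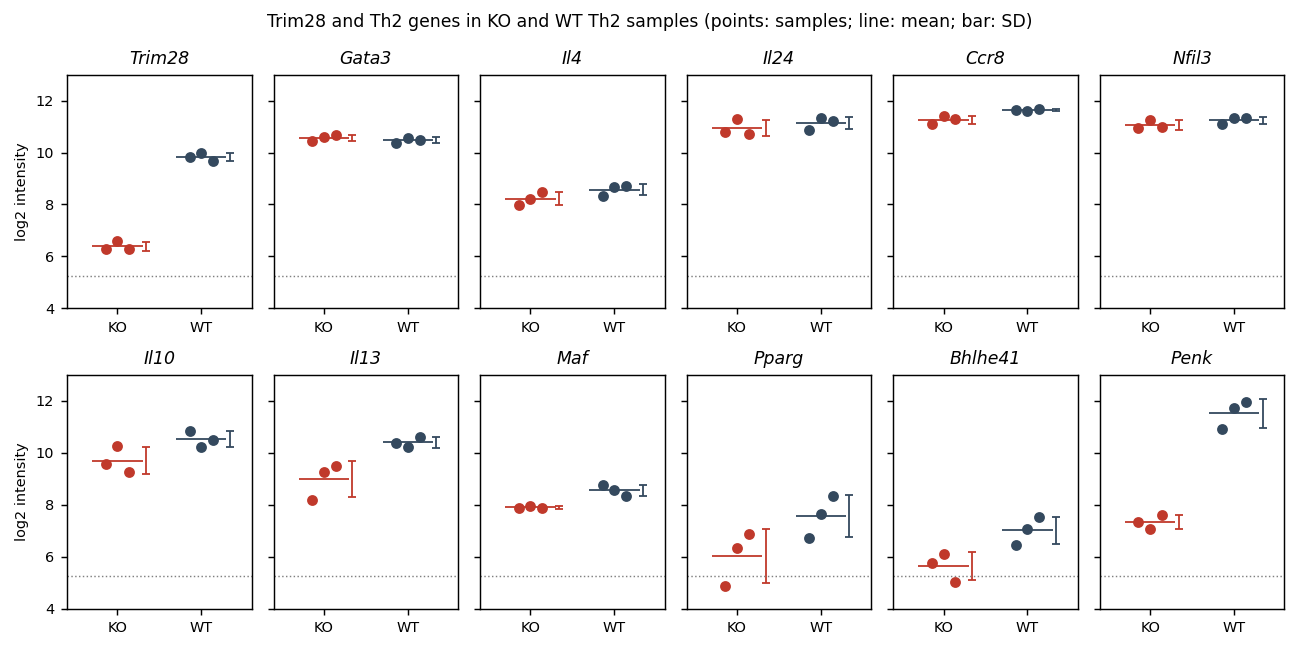
Log2 intensity of Trim28 and 11 Th2 genes in each KO (red) and WT (dark) Th2 sample, with the mean as a line, the SD as a bar, and the filter level of 5.26 dotted. Gata3, Il4, Il24 and Nfil3 overlap between the genotypes, while all KO samples lie below all WT samples for Trim28, Il13, Maf, Bhlhe41 and Penk.

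Of the 13082 genes, 2144 passed (16.4%): 982 were higher in KO (7.51%) and 1162 lower (8.88%). Changes of at least 2-fold were made by 147 of the raised genes (1.12% of those tested) and by 163 of the lowered ones (1.25%). The median change over all tested genes was -0.02. With each sample centred on its own median, that median was -0.07 and the split was 766 higher and 1505 lower. The 3 KO values were all higher than the 3 WT values for 1784 genes (13.6%) and all lower for 2340 (17.9%). Some of the large changes had 1 genotype below the level of the filter. Among the 147 genes raised at least 2-fold, 30 had a WT mean below the filter level of 5.26. Among the 163 lowered at least 2-fold, 50 had a KO mean below it. A fit to the 6 Th2 samples alone called 1186 genes, and leaving out the KO sample numbered 2 left 743 lowered genes.

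**Figure D2:**
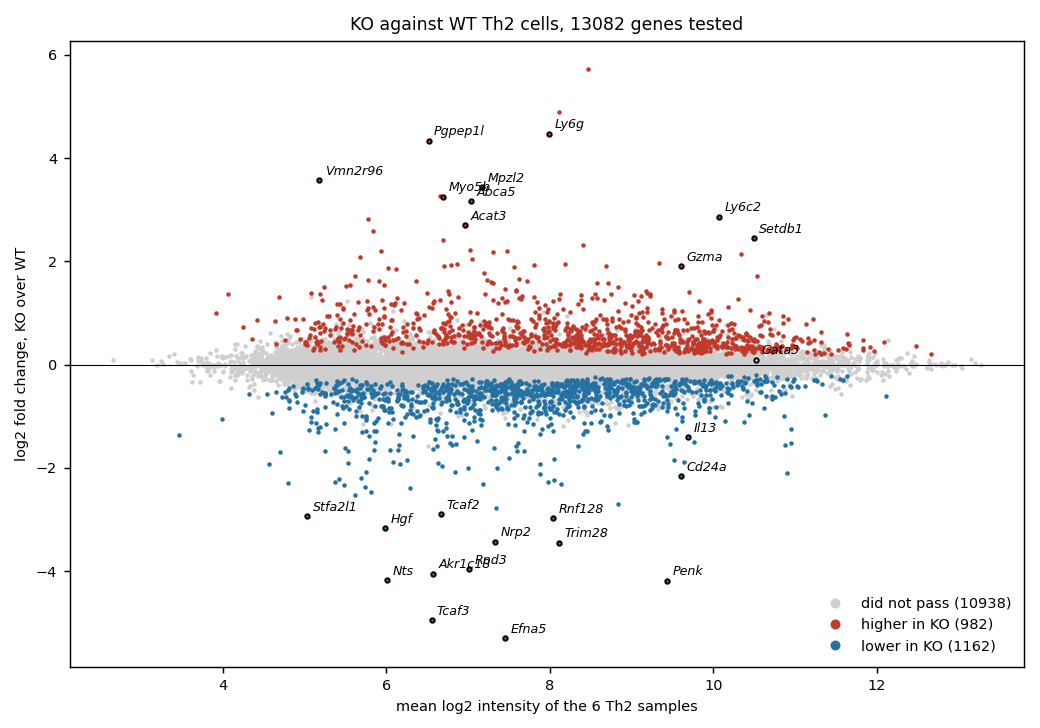
Log2 fold change of KO over WT (vertical axis) against the mean log2 intensity of the 6 Th2 samples (horizontal axis) for the 13082 tested genes, with those higher in KO in red and those lower in blue. Of the labelled genes Efna5 at -5.30 lies lowest and Ly6g at 4.47 highest, and Gata3 at 0.10 lies near 0.

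Among the cytokine genes of Th2 cells, Il13 fell and Il4 did not pass. Il13, whose protein drives mucus production and airway reactivity, had 8.19, 9.28 and 9.50 in KO samples, against 10.38, 10.21 and 10.61 in WT samples. All KO values were below all WT values, and the change was -1.41 (SE 0.32, adjusted p = 0.0024), 2.66-fold lower. Il4, the lineage's growth and switch factor, had 7.97, 8.20 and 8.49 in KO and 8.33, 8.67 and 8.70 in WT. These ranges overlapped, with a change of -0.35 (SE 0.19, adjusted p = 0.24). Il9, a mast cell growth factor, had 4.17, 4.25 and 4.82 in KO and 5.19, 5.56 and 7.49 in WT. Its change of -1.67 (SE 0.53, adjusted p = 0.029) leaned on 1 high WT sample, without which the change was -0.96 and did not pass (adjusted p = 0.25). The call was also lost without the KO sample numbered 1 or 2. Il21, which supports B cells and follicular helper cells, was the 1 cytokine gene that rose. It had 5.46, 6.20 and 7.48 in KO and 4.70, 5.22 and 5.56 in WT, a change of 1.22 (SE 0.28, adjusted p = 0.0028) with groups that touched. In the Th2-only fit Il21 did not pass (adjusted p = 0.15). Il24 changed by -0.19 (adjusted p = 0.77), and Il10, an anti-inflammatory cytokine gene, by -0.83 (SE 0.44, adjusted p = 0.22), and neither passed. Il5, the eosinophil growth factor gene, had 4.44, 4.81 and 4.63 in KO and 5.50, 5.19 and 5.67 in WT. The filter left it out of the test, and a fit with no filter gave -0.83 (SE 0.16, adjusted p = 0.00048). Of the 10 tested cytokine genes 1 rose (10%, beside 7.51% of all genes), 2 fell (20%, beside 8.88%) and 7 did not pass. Their median change was -0.51, and 9 of the 10 changes were below 0, beside the median of -0.02 over all genes.

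The promoter of Il13 is shown because Il13 was the defining Th2 cytokine gene that was tested and fell. It is the RefSeq stretch of build GRCm38.p6 from 250 bases before to 50 after the start, at chr11:53634653-53634952 on the minus strand, and AGATAA, a sequence that GATA factors can bind, stands in capitals at position -81 from the start.
Il13: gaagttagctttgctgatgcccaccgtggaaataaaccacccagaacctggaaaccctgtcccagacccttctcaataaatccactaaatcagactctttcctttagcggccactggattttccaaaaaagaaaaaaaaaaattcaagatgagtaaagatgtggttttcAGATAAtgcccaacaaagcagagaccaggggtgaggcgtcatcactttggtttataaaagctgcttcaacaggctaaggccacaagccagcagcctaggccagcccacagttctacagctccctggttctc
The letters AGATAA (or TTATCT on the other strand) were present in 6.8% of the promoters of all tested genes. Over all promoters in the table, with the first listed for each symbol, the share was 11.4%. A match is a description of the letters only.

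None of the 8 tested receptor genes of Th2 cells passed, with changes between -0.38 and 0.37 and a median of -0.04. Il4ra, the receptor chain for interleukins 4 and 13, had 11.59, 11.60 and 11.68 in KO and 11.52, 11.61 and 11.62 in WT. Ccr8 had 11.08, 11.41 and 11.28 in KO and 11.65, 11.58 and 11.68 in WT. All its KO values lay below all its WT values, but the change of -0.38 (SE 0.33, adjusted p = 0.49) did not pass.

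Of 24 transcription factors and signal transducers tied to the lineage, 4 rose (16.7%, beside 7.51% of all genes), 3 fell (12.5%, beside 8.88%) and 17 did not pass. Their median change was -0.08. The factors that set up the fate, Gata3 and Stat6, did not pass. Gata3 changed by 0.10 (SE 0.17) on its brighter probe set and by -0.16 on the dimmer one, and Stat6, which carries the interleukin-4 signal, by -0.08 (SE 0.09, adjusted p = 0.61). The 3 factors that fell are given in full. Bhlhe41, a basic helix-loop-helix repressor, had 5.75, 6.11 and 5.04 in KO and 6.47, 7.08 and 7.51 in WT, a change of -1.39 (SE 0.20, adjusted p = 1.1e-05). Pparg, a lipid-sensing nuclear receptor that Th2 cells use, had 4.86, 6.35 and 6.87 in KO and 6.74, 7.64 and 8.35 in WT. It fell by 1.55 (SE 0.30, adjusted p = 0.00056), though the groups touched and the Th2-only fit did not call it (adjusted p = 0.13). Maf, an activator of the Il4 gene, had 7.87, 7.97 and 7.86 in KO and 8.76, 8.58 and 8.35 in WT, a change of -0.66 (SE 0.16, adjusted p = 0.004). The 2 STAT5 genes, whose proteins carry interleukin-2 signals, rose. Stat5a had 10.04, 10.47 and 10.32 in KO and 9.16, 9.25 and 9.60 in WT, a change of 0.94 (SE 0.14, adjusted p = 1.8e-05). Stat5b rose by 0.57 (SE 0.09, adjusted p = 3.7e-05) and the receptor gene Notch2 by 0.51 (SE 0.09, adjusted p = 0.00023), both with no overlap. Gfi1, a repressor that aids Th2 expansion, rose by 0.73 (SE 0.21, adjusted p = 0.015). It did not pass in the Th2-only fit (adjusted p = 0.11), without the WT sample numbered 1 (adjusted p = 0.14) or without the KO sample numbered 3 (adjusted p = 0.066).

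Among 16 other genes associated with Th2 cells, 1 rose (6.25%, beside 7.51% of all genes), 5 fell (31.25%, beside 8.88%) and 10 did not pass. Their median change was -0.12. The falls were 3 in the Th2-only fit and in 3 of the 6 fits that left out a Th2 sample. Penk, which encodes the opioid precursor proenkephalin, had 7.34, 7.06 and 7.62 in KO and 10.90, 11.72 and 11.96 in WT. That is a change of -4.18 (SE 0.97, adjusted p = 0.0031), 18.2-fold lower, with a wide gap between the groups. Ltb4r1, a leukotriene B4 receptor gene, fell by 0.88 (SE 0.20, adjusted p = 0.0027). Rad50, a DNA repair gene whose introns hold the control region of the Th2 cytokine cluster, fell by 0.50 (SE 0.12, adjusted p = 0.0035, and 0.064 in the Th2-only fit). Tnfsf11, the gene of RANKL, fell by 1.06 (SE 0.33, adjusted p = 0.028), and Hpgds, the prostaglandin D2 synthase gene, fell by 0.57 (SE 0.20, adjusted p = 0.046). Both calls were lost when single Th2 samples were left out, for Tnfsf11 in 3 of 6 fits and for Hpgds in 4 of 6. Socs3, a brake on cytokine signals, rose by 0.58 (SE 0.12, adjusted p = 0.00071). Cyp11a1 gave no single answer, since its brighter probe set changed by 0.48 (SE 0.24, adjusted p = 0.19) and its dimmer one by -2.25.

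Several of the largest falls were in genes of cell surface and secreted proteins, which are given before those of proteins inside the cell. Efna5, which encodes the Eph receptor ligand ephrin-A5, had 4.80, 4.90 and 4.72 in KO Th2 samples and 9.80, 10.19 and 10.32 in WT Th2 samples. With a change of -5.30 (SE 0.14, adjusted p = 1.2e-21) it was 39.3-fold lower, and its KO level was below the filter level. In the other stimulated conditions its mean lay between 4.04 and 4.34 in KO and between 4.12 and 5.28 in WT. Nrp2, the co-receptor neuropilin 2 for semaphorins and VEGF, had 5.29, 5.43 and 6.11 in KO and 8.24, 9.38 and 9.51 in WT, a change of -3.43 (SE 0.25, adjusted p = 2.5e-11). Hgf, the gene of hepatocyte growth factor, had 4.66, 3.91 and 4.65 in KO and 7.79, 7.83 and 7.10 in WT, a change of -3.17 (SE 0.16, adjusted p = 8.6e-15). Outside the Th2 condition the means of Hgf lay between 3.67 and 4.05 in the stimulated cells of both genotypes. Nts, which encodes the peptide precursor of neurotensin, had 3.91, 3.97 and 3.90 in KO and 7.76, 8.25 and 8.30 in WT. It was 18.1-fold lower, with a change of -4.18 (SE 0.14, adjusted p = 2.7e-19), and the means of the other stimulated KO groups lay between 3.56 and 3.86.

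The promoter of Nts is shown because the gene lay below the filter level in KO Th2 cells and in the mean of every other stimulated group. It lies at chr10:102490369-102490668 of GRCm38.p6 on the minus strand, and the capitals mark AGATAA at position -131 from the start.
Nts: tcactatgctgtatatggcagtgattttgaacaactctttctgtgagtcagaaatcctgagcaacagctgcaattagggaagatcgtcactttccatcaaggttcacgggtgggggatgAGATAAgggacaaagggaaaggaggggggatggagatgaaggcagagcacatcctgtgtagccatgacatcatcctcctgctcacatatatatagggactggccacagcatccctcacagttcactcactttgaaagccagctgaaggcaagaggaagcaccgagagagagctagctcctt

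Other large falls were in genes that act inside the cell. Rnd3, whose protein loosens actin fibres, had 4.85, 4.88 and 5.38 in KO and 8.72, 9.18 and 9.09 in WT, a change of -3.96 (SE 0.21, adjusted p = 2.8e-14). Gnai1, an inhibitory G-protein subunit gene, had 5.77, 5.75 and 6.34 in KO and 8.14, 9.12 and 8.97 in WT, a change of -2.79 (SE 0.18, adjusted p = 3.3e-12). Arhgap20 fell by 2.52 (SE 0.26, adjusted p = 5.5e-08). In each of these the groups stood well apart. Rnf128, whose protein GRAIL is a ubiquitin ligase linked to T cell anergy, had 6.22, 6.67 and 6.77 in KO and 9.27, 9.69 and 9.65 in WT. Its change of -2.98 (SE 0.15, adjusted p = 1.4e-14) left a level above that of other conditions, where means did not exceed 4.82 in KO and 4.46 in WT. Akr1c18, which inactivates progesterone, had 4.80, 4.38 and 4.46 in KO and 7.97, 8.92 and 8.89 in WT, a change of -4.05 (SE 0.31, adjusted p = 1.2e-10). It passed on the lower side in all other stimulated conditions as well, at -5.14 in Th17. Tcaf3 and Tcaf2, neighbouring genes of factors that associate with the channel TRPM8, changed by -4.95 (SE 0.18) and -2.90 (SE 0.26). Tcaf3 had 3.91, 4.26 and 4.07 in KO and 8.39, 9.39 and 9.30 in WT, and it was 30.9-fold lower. Stfa2l1, a stefin-like protease inhibitor gene, fell by 2.93 (SE 0.13), and Fam229b fell by 2.71 (SE 0.20). All 4 passed with no overlap, but the pairs of related genes may share probes or transcripts.

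Cd24a, the gene of a GPI-anchored adhesion glycoprotein, changed in opposite directions between conditions. It had 8.03, 9.27 and 8.26 in KO Th2 samples and 10.13, 10.84 and 11.08 in WT Th2 samples, a change of -2.16 (SE 0.38, adjusted p = 0.00018). In Th0, Th1, Th17 and Treg the KO cells had higher levels, by 2.06, 2.91, 1.85 and 2.32, and all of these passed. The difference between the Th2 effect and the mean of those 4 was -4.45 (adjusted p = 2.6e-08), and both of its probe sets were lower in KO Th2, at -2.16 and -2.31. Of 18 genes of adhesion and integrins 2 rose (11.1%, beside 7.51% of all genes), 6 fell (33.3%, beside 8.88%) and 10 did not pass. None of them rose in the Th2-only fit. Ptgfrn, a tetraspanin partner, changed by -1.96 (SE 0.21, adjusted p = 6.6e-08). The integrin genes Itgb5 at -1.29, Itga5 at -0.88 and Itgb1 at -0.63 passed on the lower side, the last with an adjusted p of 0.059 when the WT sample numbered 3 was left out.

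With uncharacterized symbols left out of the ranking, the largest rises were led by Ly6g. Another member of the Ly6 family of surface proteins stood among the 15 highest. The uncharacterized 9430037G07Rik rose more than Ly6g, by 4.89, and passed. Ly6g, a GPI-anchored protein used as a mark of neutrophils, had 9.41, 10.55 and 10.71 in KO Th2 samples and 5.15, 5.69 and 6.43 in WT Th2 samples. It rose 22.1-fold, with a change of 4.47 (SE 0.37, adjusted p = 5.5e-10), and also rose in Th17 by 3.01, while in Th0, Th1 and Treg its changes of 0.34, -0.89 and 0.33 did not pass. Ly6c2, found on monocytes and some T cells, had 11.22, 11.63 and 11.67 in KO and 8.06, 8.82 and 9.04 in WT, a change of 2.86 (SE 0.41, adjusted p = 8.3e-06). Ly6c1 rose by 0.81 (SE 0.26, adjusted p = 0.031), a call lost in 4 of the 6 fits that left out a Th2 sample. These genes are near-copies of each other, and what each probe set measures is uncertain. Of 15 myeloid genes 7 passed the filter. Of these, Ly6g, the phospholipase-like gene Pld4 and the macrophage gene Adgre1 rose (42.9%, beside 7.51% of all genes) and none fell. KO levels can carry a gene past the filter, so this share is no result about the list. In a fit with no filter 3 of the 15 rose and none fell, with a median change of 0.09. The summed log2 level of all 15 was between 86.8 and 88.2 in KO and between 78.5 and 79.2 in WT. Most of that gap came from Ly6g, Pld4 and Adgre1, with changes of 4.47, 2.41 and 1.10. The 8 genes that did not meet the filter held Lyz2, Csf1r, Cd14, S100a8 and S100a9 among them. They lay between 3.35 and 5.20 in KO and between 3.44 and 5.36 in WT. In a fit with no filter none of the 8 passed.

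The promoters of Ly6g and Ly6c2 are shown because the 2 genes rose together and the stretches are related. In GRCm38.p6 they lie at chr15:75155011-75155310 on the plus strand and at chr15:75111922-75112221 on the minus strand. RefSeq lists 2 starts for each of the 2 genes, and the first listed was used. Capitals mark bases that differ or have no partner in the alignment. Of 223 aligned bases, 180 were identical (80.7%).
Ly6g: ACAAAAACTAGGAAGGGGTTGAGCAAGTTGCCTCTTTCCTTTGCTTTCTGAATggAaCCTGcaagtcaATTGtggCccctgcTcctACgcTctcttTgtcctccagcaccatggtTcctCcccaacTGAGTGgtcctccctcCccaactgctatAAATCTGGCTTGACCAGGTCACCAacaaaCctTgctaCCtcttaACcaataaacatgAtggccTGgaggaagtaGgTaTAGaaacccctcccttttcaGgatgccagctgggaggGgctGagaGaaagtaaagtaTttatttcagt
Ly6c2: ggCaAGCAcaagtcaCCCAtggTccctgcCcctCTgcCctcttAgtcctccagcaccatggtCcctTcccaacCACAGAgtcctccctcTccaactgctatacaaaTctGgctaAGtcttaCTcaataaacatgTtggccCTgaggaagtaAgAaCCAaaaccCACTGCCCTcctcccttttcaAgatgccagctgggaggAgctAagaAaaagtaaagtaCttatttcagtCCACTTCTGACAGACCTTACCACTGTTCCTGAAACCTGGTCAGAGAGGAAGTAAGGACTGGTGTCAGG

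Of 15 genes of mitochondrial lipid oxidation and sterol export 6 rose (40%, beside 7.51% of all genes) and 2 fell (13.3%, beside 8.88%), with a median change of 0.19. Abca5, a lipid transporter gene, had 8.37, 8.73 and 8.76 in KO and 4.69, 5.75 and 5.91 in WT, a change of 3.17 (SE 0.25, adjusted p = 2.2e-10). Acadm, the gene of an enzyme that oxidizes medium-chain fatty acids, had 11.56, 11.36 and 11.29 in KO and 9.46, 9.28 and 9.07 in WT. Its change of 2.13 had a small error (SE 0.09, adjusted p = 3.9e-16), and it passed on the higher side in all other conditions. Acat3, an acetyl-CoA acetyltransferase gene, had 7.95, 8.60 and 8.41 in KO and 5.73, 5.74 and 5.39 in WT. It rose by 2.70 (SE 0.21, adjusted p = 1.3e-10), and in the other stimulated conditions its changes between -0.35 and 0.06 did not pass. Abca1, the cholesterol exporter, rose by 1.95 (SE 0.34, adjusted p = 0.00015) and Cpt1a, which carries fatty acids into mitochondria, by 0.90 (SE 0.11, adjusted p = 8.3e-07). The nuclear receptor gene Ppard was one of those that fell, at -0.54 (SE 0.14, adjusted p = 0.0054). On the side of synthesis, 4 of 24 cholesterol and fatty acid genes fell (16.7%, beside 8.88% of all genes) and none rose. Their median change was -0.07, and 2 fell in the Th2-only fit. Lss, the gene of lanosterol synthase, changed by -0.78 (SE 0.16, adjusted p = 0.00096), the desaturase gene Fads1 by -0.60 (SE 0.15) and Acly, which makes acetyl-CoA from citrate, by -0.47 (SE 0.11).

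Other large rises are given next, some from WT levels near or below the filter level. Pgpep1l, a peptidase-like gene, had 9.17, 8.43 and 8.47 in KO and 4.30, 4.91 and 3.84 in WT, a change of 4.34 (SE 0.25, adjusted p = 2.4e-13). Vmn2r96, which encodes a pheromone receptor of the nose, had 6.94, 6.76 and 7.20 in KO and 3.005, 3.63 and 3.55 in WT, a change of 3.57 (SE 0.37, adjusted p = 5.1e-08). Both were raised in every condition, naive cells included, where they changed by 4.01 and 2.92. Myo5b, a motor protein of vesicle transport, had 8.10, 8.06 and 8.81 in KO and 5.05, 5.06 and 5.10 in WT, a change of 3.25 (SE 0.24, adjusted p = 4.1e-11). Mpzl2, an adhesion protein of epithelia and thymus, had 8.71, 10.29 and 7.69 in KO and 5.02, 5.38 and 5.98 in WT. Its change of 3.44 (SE 0.41, adjusted p = 5.4e-07) had a wide spread among the KO samples. Pld4 rose by 2.41 (SE 0.28), Pgap1, which trims GPI anchors, by 2.31 (SE 0.22), the glutathione transferase gene Gstt3 by 2.22 (SE 0.20), Nrbp2 by 2.20 (SE 0.20) and Plac8 by 2.20 (SE 0.31). Each of them passed with no overlap between the groups.

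**Figure D3:**
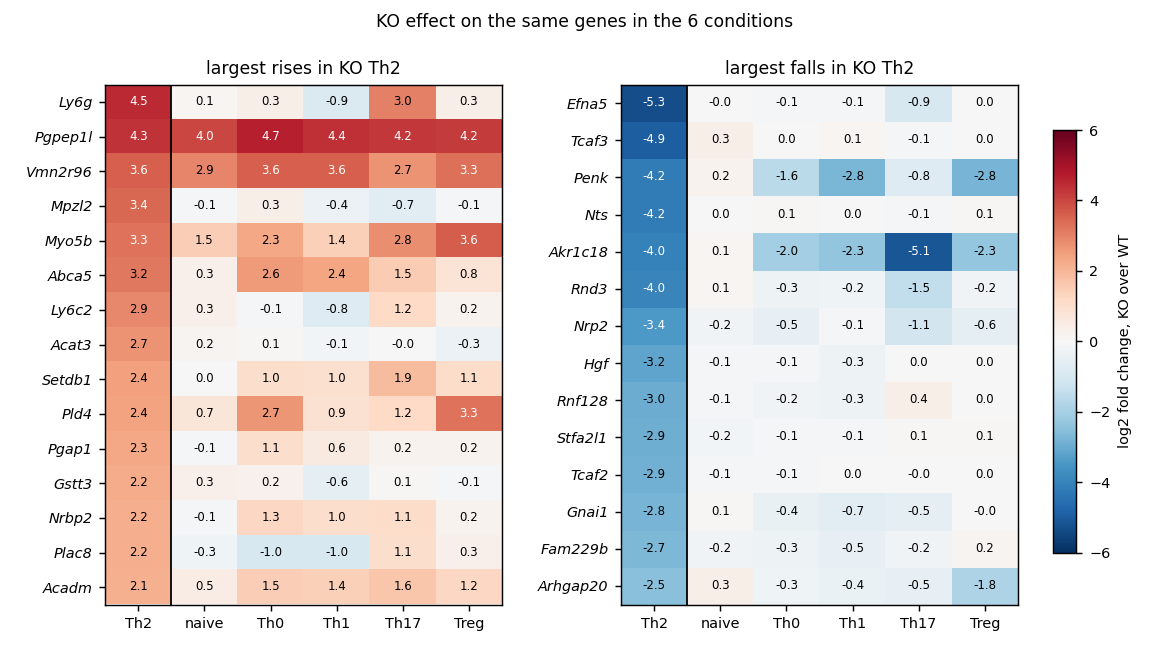
Log2 fold change of KO over WT, as colour and printed value, for the 15 largest rises (left) and 14 largest falls (right) in Th2 and in each other condition. Uncharacterized symbols and genes whose groups overlap were left out of the ranking, and Trim28 is not shown. Efna5, Tcaf3, Nts and Hgf have values near 0 outside Th2 apart from Efna5 in Th17, whereas Pgpep1l and Vmn2r96 are raised in every column.

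Of 33 genes of TRIM28's partners and of chromatin silencing, a list without Trim28, 4 rose (12.1%, beside 7.51% of all genes). In this list 5 fell (15.2%, beside 8.88%) and 24 did not pass. Setdb1, the methyltransferase that TRIM28 recruits, had 11.56, 11.86 and 11.74 in KO and 9.42, 9.32 and 9.09 in WT. It rose 5.43-fold, with a change of 2.44 (SE 0.15, adjusted p = 9.9e-13), more than the mean of the other stimulated conditions by 1.20 (adjusted p = 2.6e-05). Mbd1, which binds methylated DNA, rose by 1.72 (SE 0.10, adjusted p = 1.3e-13) and the related co-factor gene Trim24 by 0.70 (SE 0.09, adjusted p = 3.7e-06). Tet1, which oxidizes methylcytosine, had 6.21, 6.07 and 6.18 in KO and 6.64, 7.21 and 7.13 in WT, a change of -0.84 (SE 0.18, adjusted p = 0.0017). The count of falls moved between 1 and 6 when single Th2 samples were left out. Of 294 tested genes with a Zfp symbol 19 rose and 9 fell, with Zfp53 at 1.35 and Zfp831 at 1.18 as the highest and Zfp9 at -0.85 as the lowest. These shares, 6.46% and 3.06%, lie below those over all genes, 7.51% and 8.88%, and are no result about the family. Among germline genes only 5 of 24 with a probe set passed the filter, and 3 of these rose: M1ap by 1.72, the meiotic break enzyme gene Spo11 by 1.30 and Tdrd9 by 0.68. The other 19 lay at or below 4.96 in KO and 5.01 in WT. KO levels can carry a gene past the filter, so 3 of 5 is no result about the list. Spo11 had 4.56, 3.62 and 3.92 in WT, all below the filter level. In a fit with no filter 3 of 24 rose and none fell, with a median change of -0.01. Of 19 imprinted genes 2 fell (10.5%, beside 8.88% of all genes), Sgce at -0.90 and Grb10 at -0.68. The call of Grb10 was lost without the WT sample numbered 3, at -0.44 (adjusted p = 0.077).

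Among 20 genes of the Th1 lineage there were 3 rises (15%, beside 7.51% of all genes) and 2 falls (10%, beside 8.88%), but only 1 rise without the KO sample numbered 1, without the WT sample numbered 3 or in the Th2-only fit. Eomes, a T-box factor of cytotoxic cells, fell by 1.13 (SE 0.26, adjusted p = 0.0025). Among 21 regulatory T cell genes 4 rose (19%) and 2 fell (9.52%), with 2 rises without the WT sample numbered 1 and 1 fall in 4 of the 6 fits that left out a Th2 sample. Izumo1r, the folate receptor 4 gene, had 9.18, 9.42 and 10.16 in KO and 7.66, 8.12 and 8.44 in WT, a change of 1.51 (SE 0.20, adjusted p = 2.1e-06). Nrp1 rose by 1.11 (SE 0.29, adjusted p = 0.0088, and 0.90 with an adjusted p of 0.062 without the WT sample numbered 1) and the ectoenzyme gene Nt5e by 0.91 (SE 0.20, adjusted p = 0.0021, and 0.083 in the Th2-only fit). Bcl6, the repressor that guides follicular helper cells, had 9.30, 9.42 and 9.40 in KO and 7.41, 7.95 and 8.01 in WT. That change of 1.58 (SE 0.22, adjusted p = 7.3e-06) was the largest among 18 genes of the interleukin-2 and STAT5 pathway. Of these 18, 5 rose (27.8%, beside 7.51% of all genes) and none fell. Gzma, the gene of the protease granzyme A, had 10.09, 10.93 and 10.67 in KO and 8.19, 8.71 and 9.06 in WT. It rose by 1.91 (SE 0.25, adjusted p = 3.1e-06), while 14 of the 16 genes of CD8 and cytotoxic cells did not pass. Of 14 genes of inhibitory receptors and their ligands 3 rose (21.4%, beside 7.51% of all genes) and none fell. Pdcd1lg2, which encodes the PD-1 ligand PD-L2, had 7.25, 8.35 and 8.55 in KO and 5.97, 6.49 and 6.78 in WT, a change of 1.64 (SE 0.26, adjusted p = 4.9e-05). Cd244a rose by 1.37 (SE 0.20, adjusted p = 9.2e-06).

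Of 23 genes of naive and resting T cells 9 rose (39.1%, beside 7.51% of all genes) and 1 fell, with a median change of 0.32. Btg2, an antiproliferative gene, had 11.12, 11.25 and 10.86 in KO and 10.01, 10.33 and 10.45 in WT, a change of 0.82 (SE 0.17, adjusted p = 0.0012). Bach2, a repressor of effector programs, rose by 0.66 (SE 0.12, adjusted p = 0.00038, and 0.056 in the Th2-only fit). Igfbp4 went the other way at -1.12 (SE 0.21, adjusted p = 0.00032). Leaving out single Th2 samples gave between 4 rises (without the KO sample numbered 1 or 2 or the WT sample numbered 3) and 9 rises (without the KO sample numbered 3), and the Th2-only fit gave 2. Among 22 activation genes Cd69, an early activation marker, fell by 1.10 (SE 0.29, adjusted p = 0.008), a call lost without the WT sample numbered 1 (adjusted p = 0.06) or the KO sample numbered 3 (adjusted p = 0.057). Slc3a2, the shared chain of amino acid transporters, had 10.88, 10.79 and 10.76 in KO and 11.24, 11.18 and 11.26 in WT, a change of -0.42 (SE 0.09, adjusted p = 0.0011).

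In the lists of glucose use, protein synthesis and stress more genes fell than rose. Of 21 genes of glycolysis and its oxygen-linked control 10 fell (47.6%, beside 8.88% of all genes), with a median change of -0.44. Hk2, the gene of the first enzyme of the pathway, had 8.02, 8.06 and 8.26 in KO and 9.12, 9.27 and 9.50 in WT, a change of -1.19 (SE 0.19, adjusted p = 3.7e-05). Vegfa fell by 1.40 (SE 0.20, adjusted p = 7.1e-06) and the glucose transporter gene Slc2a3 fell by 0.95 (SE 0.19, adjusted p = 0.00053). Of 18 transfer RNA synthetase genes, whose enzymes charge transfer RNAs with amino acids, 10 fell (55.6%), with a median change of -0.54. Iars, the isoleucine enzyme gene, had 9.50, 9.39 and 9.69 in KO and 10.37, 10.38 and 10.35 in WT, a change of -0.84 (SE 0.10, adjusted p = 7.2e-07), and Nars changed by -0.71 (SE 0.11, adjusted p = 5.5e-05). Of 25 genes of the integrated stress and unfolded protein responses 12 fell (48%) and 1 rose, with a median change of -0.40. Stc2, a secreted glycoprotein gene induced by such stress, had 9.04, 8.75 and 9.26 in KO and 10.25, 10.76 and 10.51 in WT, a change of -1.49 (SE 0.18, adjusted p = 7.7e-07). Cpe, a prohormone-processing enzyme gene, fell by 2.34 (SE 0.22, adjusted p = 5.1e-09). Asns, the asparagine synthetase gene, changed by -1.25 (SE 0.41, adjusted p = 0.034), a call lost in 5 of 6 fits without a Th2 sample. Of 24 genes of ribosome biogenesis 12 fell (50%), with a median of -0.34, and Rcl1 at -1.12 (SE 0.17) and Utp20 at -0.79 (SE 0.16) led them. In Th0 the median changes of the glycolysis, synthetase, stress and ribosome lists were -0.77, -0.61, -0.71 and -0.66. In Th1 they were -1.02, -0.76, -0.84 and -0.66. In Th17 they were -0.0055, -0.14, -0.12 and -0.22, and in Treg 0.03, 0.01, -0.03 and -0.06.

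The counts of these lists in Th2 differ in how far they rest on single samples. For glycolysis 6 genes passed without the WT Th2 sample numbered 2 and 7 in the Th2-only fit. For ribosome biogenesis 3 genes passed without the WT Th2 sample numbered 1, 4 without the KO sample numbered 2, 6 without the KO sample numbered 1 and 2 in the Th2-only fit. For the stress list 6 passed on the lower side without the KO sample numbered 1 or 2 or the WT sample numbered 1, and 7 in the Th2-only fit. The synthetases kept a count of 10 in every fit that left out a Th2 sample. Their count was 8 in the Th2-only fit and 7 when a block for the replicate number was added to it. Of 40 genes of proliferation only E2f1, an activator of S phase, passed, at -0.79 (SE 0.20, adjusted p = 0.0064), and it did not without the KO sample numbered 2 (adjusted p = 0.056). All 40 changes were below 0, the median was -0.62, and for 31 of the 40 all KO samples lay below all WT samples, a pattern found in 17.9% of all genes. The median change of this list was -1.85 in Th0, -1.49 in Th1, -0.61 in Th17 and -0.08 in Treg. Mki67, the proliferation marker, had 10.70, 10.53 and 10.73 in KO and 11.37, 11.15 and 11.29 in WT, a change of -0.62 (SE 0.42, adjusted p = 0.35). Its SE is set by the spread within all 12 groups. When the KO samples numbered 1 of Th0 and of Th1 were left out of the fit, 29 of the 40 passed on the lower side and Mki67 among them (adjusted p = 0.039), and in the Th2-only fit 20 did. None of the 23 genes of oxidative phosphorylation passed.

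**Figure D4:**
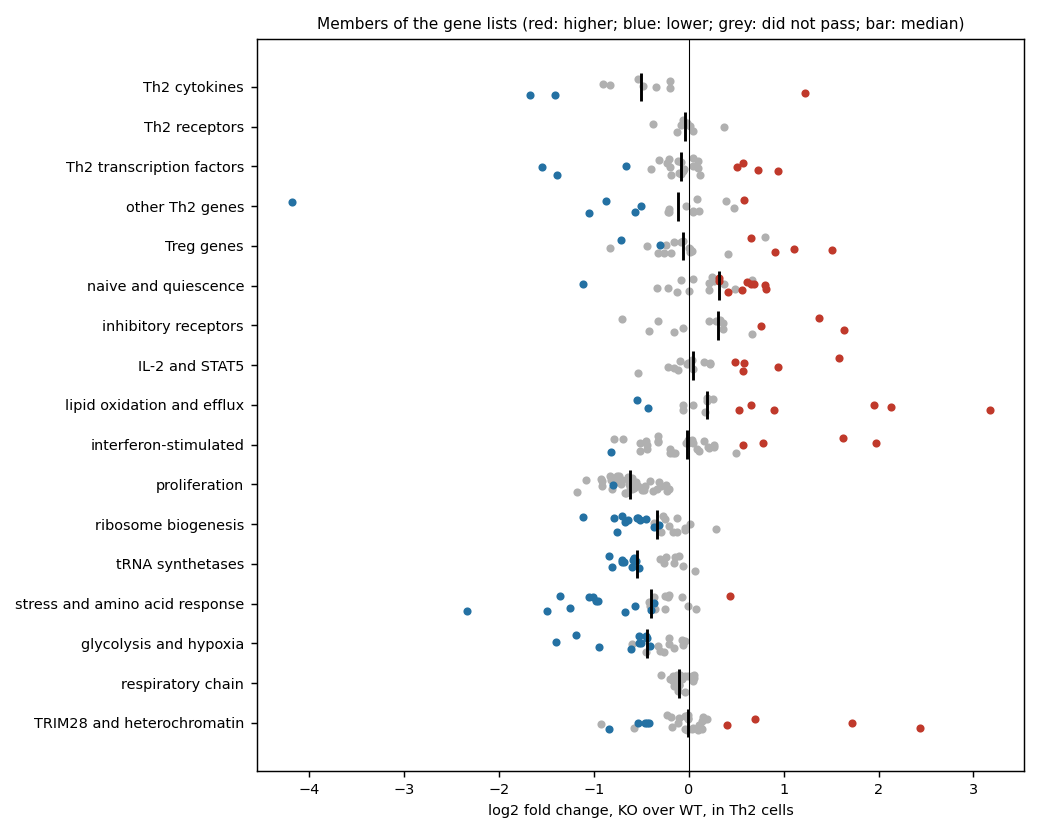
Log2 fold change of KO over WT in Th2 cells for the members of each gene list, 1 point a gene, with genes that passed on the higher side in red, those on the lower side in blue, the others in grey, and the median as a line. The proliferation list lies wholly below 0 with a median of -0.62, and the list of naive and quiescence genes has a median of 0.32.

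Of 32 interferon-induced genes 4 rose (12.5%, beside 7.51% of all genes) and 1 fell, and 27 did not pass. The list does not hold the Ifitm genes, which fell and are given further on. Usp18, which limits interferon signals, had 10.34, 10.59 and 10.05 in KO and 8.63, 8.10 and 8.32 in WT, a change of 1.97 (SE 0.26, adjusted p = 3.4e-06). Mx1, an antiviral GTPase gene, had 6.32, 6.36 and 7.12 in KO and 5.22, 4.92 and 4.76 in WT, a change of 1.63 (SE 0.29, adjusted p = 0.00019). The RNA sensor gene Ifih1 fell by 0.82 (SE 0.24, adjusted p = 0.017), a call lost without the WT sample numbered 1 (adjusted p = 0.078) or the KO sample numbered 2 (adjusted p = 0.055). Of 20 genes of TGF-beta signalling 5 rose (25%) and 3 fell (15%), with 3 rises without the WT sample numbered 3, and 2 rises and 1 fall in the Th2-only fit. Among those that passed were the ligand gene Bmp7 at 1.05 (SE 0.20, adjusted p = 0.00031) and the feedback gene Pmepa1 at -0.94 (SE 0.25, adjusted p = 0.0088, and 0.057 without the KO sample numbered 1). The summed levels of genes of other cell types, the myeloid list apart, overlapped between the genotypes. The summed log2 level lay between 61.5 and 65.8 in KO and between 62.0 and 63.3 in WT for mast cell, basophil and eosinophil genes, and between 56.6 and 57.4 in KO and 56.2 and 56.8 in WT for B cell genes. For genes of CD8 cells the sums were 109 to 112 in KO and 109 to 113 in WT. Of 11 T cell genes 5 rose (45.5%, beside 7.51% of all genes) by small amounts, between 0.27 for Cd3d and 0.35 for Cd5. None of them passed in the Th2-only fit. Cd3d and Cd5 each lost the call in 4 of the 6 fits that left out a Th2 sample, with adjusted p up to 0.13 and 0.16.

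Many of the changed genes had a neighbour on the chromosome that changed the same way, as a description with no test. A neighbour is the nearest tested gene on either side. Genes that were not tested may lie between, and distance was not considered. Of 981 raised genes with a position, 300 (30.6%) had a nearest tested neighbour that was also raised, while 14.2% of all 13051 placed genes had such a neighbour. For 1159 lowered genes the share was 333 (28.7%), beside 16.8% of all genes. Among genes changed at least 2-fold, 19 raised ones formed 7 runs of neighbours and 24 lowered ones formed 10, a set that was chosen after the values were seen. On chromosome 10, Ddt and the glutathione transferase genes Gstt3, Gstt1 and Gstt2 rose by 1.23, 2.22, 1.93 and 1.20. On chromosome 18, Mbd1, Cfap53 and Myo5b rose by 1.72, 2.07 and 3.25, and on chromosome 3, Rabggtb, Acadm and Slc44a5 by 1.21, 2.13 and 1.36. The runs of lowered genes held several of the largest falls. Among the tested genes, Hgf and Gnai1 were consecutive on chromosome 5, Tcaf3 and Tcaf2 on chromosome 6, and Radx and Rnf128 on chromosome X. Radx, a replication fork protein gene, had 4.07, 4.23 and 4.40 in KO and 6.90, 6.46 and 6.18 in WT. On chromosome 7, Ifitm5, Ifitm2, Ifitm1, Ifitm3 and Ifitm6 changed by -1.52, -1.62, -1.10, -1.84 and -1.08. They encode a family of membrane proteins, some of which hinder virus entry, and are not in the interferon list. On chromosome 10, Fam229b, Tube1 and Ccn6 changed by -2.71, -2.10 and -1.89. The Ifitm and Gstt genes are families of close copies, so their probe sets may read each other's transcripts, and the call of Ifitm1 was lost in 4 of the 6 fits that left out a Th2 sample (adjusted p up to 0.15).

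**Figure D5:**
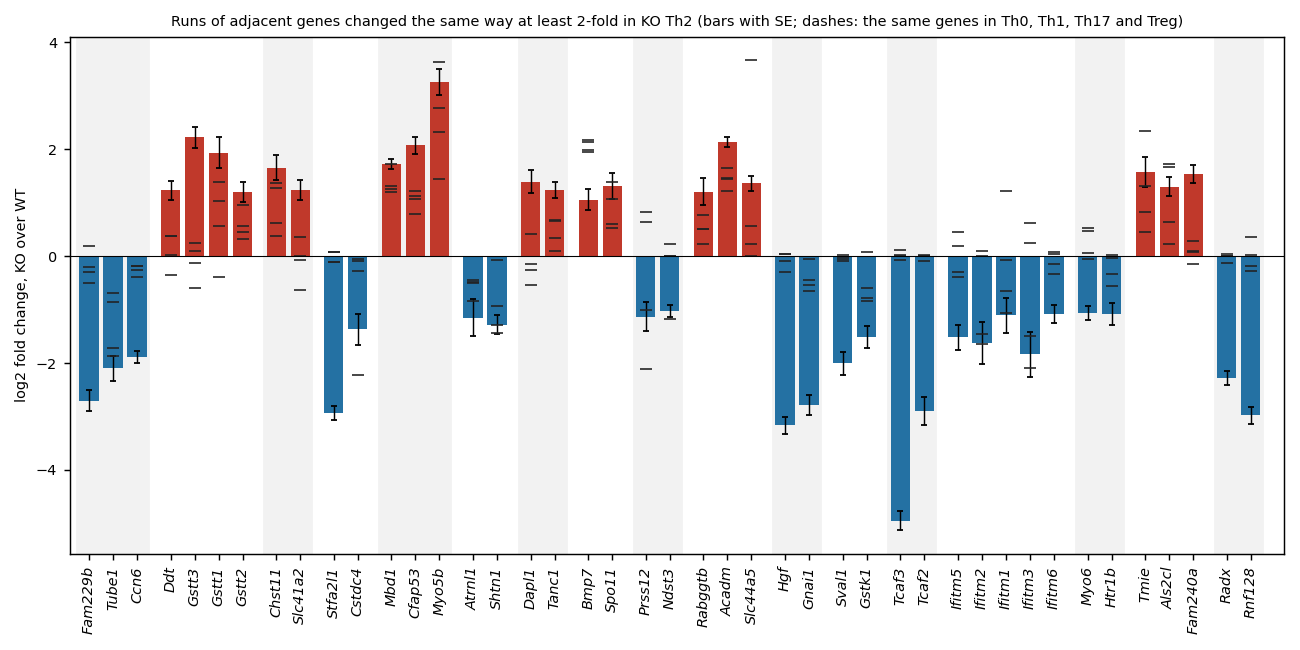
Log2 fold change of KO over WT in Th2 cells (bars, with the SE) for genes in runs of adjacent tested genes changed at least 2-fold the same way, and the changes in Th0, Th1, Th17 and Treg as dashes. Ddt, Gstt3, Gstt1 and Gstt2 rose in Th2 by 1.20 to 2.22, and Radx and Rnf128 changed by -2.28 and -2.98 with dashes near 0.

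The promoters of the changed genes are described by their letters, with no test. Of 13082 tested genes 10264 matched a RefSeq promoter. AGATAA or TTATCT was present in 13 of 105 promoters of genes raised at least 2-fold (12.4%) and in 8 of 125 of genes lowered at least 2-fold (6.4%), beside 6.8% of all tested genes. TTCNNNNGAA, the core that STAT proteins can bind, reads the same on both strands and was present in 7.62%, 7.2% and 5.24% of these sets. The median number of CpG pairs was 12 in promoters of genes raised at least 2-fold, 18 in those lowered at least 2-fold and 20 over all tested genes. The median GC content was 56.0%, 61.7% and 60.3%.

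The effect of TRIM28 loss in Th2 cells differed from its mean effect in Th0, Th1, Th17 and Treg for 631 genes (4.82%), 340 (2.6%) with a more positive and 291 (2.22%) with a more negative effect in Th2. The most negative differences were at Efna5 (-5.02), Tcaf3 (-4.97), Cd24a (-4.45), Nts (-4.21), Rnd3 (-3.41) and Hgf (-3.09). The most positive were at Ly6g (3.77), Mpzl2 (3.65), Acat3 (2.82), Ly6c2 (2.73), Plac8 (2.34) and Gstt3 (2.32). Against Th17 alone 584 genes differed (4.46%), and against Th0 alone 1333 (10.2%). For Rnd3 and Efna5 a smaller fall passed in Th17 as well, of -1.47 and -0.94. Some Th2 genes did not differ in this test: the difference was -0.98 (adjusted p = 0.13) for Il13 and 0.19 (adjusted p = 0.76) for Il4. For Penk it was -2.19 (adjusted p = 0.33), and for Akr1c18 -1.09 (adjusted p = 0.073).

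No samples are shared between the KO effects of different conditions, so the genes that passed can be set side by side. In Th17, with 1074 genes called (8.21%), 224 were raised in common with Th2, which is 22.8% of the genes raised in Th2 and 42.5% of those raised in Th17. The lowered genes shared 199, which is 17.1% of those of Th2 and 36.4% of those of Th17. In Th0, with 4765 genes called (36.4%), 515 raised genes were shared (52.4% and 23.4%) and 619 lowered ones (53.3% and 24.1%). The shares of tested genes called raised and lowered were 0.948% and 0.199% in naive cells, 16.8% and 19.6% in Th0, 17% and 23.7% in Th1, 4.03% and 4.18% in Th17, and 1.71% and 2.51% in Treg. Raised in all 5 other conditions were 18 of the 982 genes, and lowered in all of them 4 of the 1162. Of the raised genes 292 (29.7%) and of the lowered ones 313 (26.9%) passed in the same direction in none of the 5 other conditions, which by itself does not show a difference of effect.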

How the data were processed

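The deposited values are log2 intensities that the authors made by RMA (oligo, R 3.1.0), per the submitters' processing notes. The build and annotation of the array are not given in the sources used here. The values were used as deposited. All 41345 probe sets were read, and every column of per-sample values was used. Genes were named by the platform's annotation: 23521 probe sets had 1 symbol, 1814 several and 16010 none. Of the 1082 genes with several probe sets the brightest was taken, which gave 22180 genes, and 13082 lay above 5.26 in at least 3 samples and were tested.

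A mean for each of the 12 groups was fitted to all 36 samples with limma 3.58.1 in R 4.3.3, with 24 residual degrees of freedom (27.9 with the prior). Benjamini-Hochberg adjustment ran over the tested genes of a comparison, and 3808 genes had an unadjusted p under 0.05 in KO against WT Th2. The steps were tested on simulated data.

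The samples, the gene lists, the tests and the alternatives were chosen with earlier results of these data known. The lists were written from general knowledge. Named were Trim28, the 15 highest and 15 lowest changes without overlap between the groups, Th2 genes, and up to 6 called members of each other list. The 6 extreme differences between conditions were named too. Il5, 9430037G07Rik and runs of neighbours were named outside this rule. Xist, the Y-linked genes Ddx3y, Eif2s3y, Kdm5d and Uty, and uncharacterized symbols were left out of the ranking. Members of the Th2 lists not named are given by counts and ranges, as are called members of other lists. Chromosome order came from a RefSeq gene table, used only for which tested genes neighbour each other. Promoter sequences are from RefSeq on GRCm38.p6, 250 bases before to 50 after the first listed start of each gene. The deviations from the group means of same-numbered KO and WT Th2 samples correlated at 0.397, 0.0403 and 0.225, so the numbers were not taken as pairs. The alternatives were no filter, a stricter filter, 3 scalings, averaged probe sets, all probe sets, another prior and array weights. Others were the compared groups fitted alone, a block for the replicate number, and each sample of the compared groups left out in turn.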

Additional observations from a re-analysis of the deposited data

Results flagged for a closer look

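For 56 of the named genes the KO effect in Th2 differed from its mean over Th0, Th1, Th17 and Treg in the limma fit, and each difference is given on the log2 scale as Th2 minus that mean. Effects more negative in Th2 were found for surface and secreted proteins at Efna5 (-5.02), Cd24a (-4.45), Nts (-4.21), Hgf (-3.09), Nrp2 (-2.85), Htr1b (-0.86), Itgb5 (-0.75), Itga5 (-0.66), Cd69 (-1.25), Vegfa (-0.99), the growth factor gene Bmp7 (-1.01) and Ccn6 (-1.64). For other proteins they were found at Tcaf3 (-4.97), Tcaf2 (-2.88), Rnd3 (-3.41), Gnai1 (-2.37), Arhgap20 (-1.77), Myo6 (-1.32), Rnf128 (-2.95), Stfa2l1 (-2.92) and Fam229b (-2.50). The remaining ones were Radx (-2.26), Ifitm5 (-1.51), Ifitm6 (-0.99), Gstk1 (-0.98), Slc2a3 (-1.03), Hpgds (-0.997), Rcl1 (-0.72) and the repressor Bhlhe41 (-1.38).

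Effects more positive in Th2 were found for surface and immune proteins at Ly6g (3.77), Mpzl2 (3.65), Ly6c2 (2.73), Plac8 (2.34), Mx1 (2.03), Pdcd1lg2 (1.81), Gzma (1.75), Il21 (1.27), Adgre1 (1.06), Cd244a (0.91) and Notch2 (0.69). For lipid and other enzymes and transporters they were found at Acat3 (2.82), Gstt3 (2.32), Gstt1 (1.28), Ddt (1.12), Pgap1 (1.80), Abca1 (1.72), Abca5 (1.35), Slc41a2 (1.32), Cpt1a (0.75) and Acadm (0.69). The rest were Dapl1 (1.53), Nrbp2 (1.30), Setdb1 (1.20), Cfap53 (1.03), Tanc1 (0.80) and Stat5a (0.70). Cd24a stands out because its effect in Th2 was below 0 and its effect in each of the other 4 stimulated conditions above 0. For Bmp7 the gene rose in KO cells of every condition, by less in Th2.

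With single Th2 samples left out, the call of the difference was lost in at least 1 fit for 8 of the 56 genes, with the highest adjusted p in parentheses: Htr1b (0.17), Rcl1 (0.15), Itgb5 (0.14), Gstt1 (0.11), Cd69 (0.10), Cd244a (0.096), Il21 (0.091) and Adgre1 (0.07).

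Among probe sets that the annotation gives no symbol, which the comparisons of genes did not use, 516 of 9318 tested were higher in KO Th2 samples and 83 were lower (6.43% in all). Of 13860 tested probe sets with 1 symbol, 843 were higher and 1004 lower (13.3%). What the probe sets without a symbol measure was not analysed here.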

How the results depend on the processing

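Of the 125 named genes that passed in KO against WT Th2, 96 lost the call in no alternative run that tested them. A gene that a filter left out of a run counts as kept there, and the run on all probe sets was not read gene by gene. The call was kept by 123 under all 3 rescalings and by 109 whichever Th2 sample was left out. In the fit to the groups compared alone 105 of the 125 kept it. That fit called 1186 genes, 491 raised and 695 lowered, and 848 for the difference against Th0. It ended the calls of Il9 (adjusted p = 0.10), Il21 (0.15), Gfi1 (0.11), Pparg (0.13), Rad50 (0.064), Socs3 (0.05), Hpgds (0.16), Ly6c1 (0.091), Nt5e (0.083), Acly (0.062), Bach2 (0.056), Sgce (0.15), Grb10 (0.091), Casp8 (0.057), Utp20 (0.073), Cd5 (0.085), Cd3d (0.13), Zfp9 (0.083), Ifitm1 (0.21) and Htr1b (0.052), and Mki67 passed in it (0.016). Array weights gave more calls: 3368 in Th2, of which 1935 were lowered, 1485 for the difference against the other 4 stimulated conditions, 1419 against Th17 and 2904 against Th0, and Il4 passed with them at -0.47 (adjusted p = 0.031). For the replicate number as a block, the fit to all 36 samples gave 2288 genes in Th2, 1059 raised and 1229 lowered, and all 125 genes kept their call. The block within the fit to the groups compared gave 646 raised genes and 824 for the difference against Th0. In their deviations from the group means, 2 of the 3 samples correlated best with the sample of the same number, and the numbers were not taken as pairs. Only samples of the groups compared were left out singly. With 1 of these samples left out in turn, the genes called ranged from 1453 to 2156 in Th2. Of these genes, 709 to 995 were raised and 743 (without the KO Th2 sample numbered 2) to 1161 were lowered. They ranged from 432 to 678 for the difference against the 4 conditions, from 445 to 595 against Th17, and from 727 (without the KO Th0 sample numbered 1) to 1669 against Th0, with 864 without the WT Th2 sample numbered 2. Without the KO samples numbered 1 of Th0 and of Th1, an alternative chosen after seeing the data, the fit gave 2470 genes in Th2 and 632 for the difference against the 4 conditions. Signs turned at Il4ra, to -0.0084 with median centring, and for the mean of the probe sets at Gata3, to -0.0299, and at Cyp11a1, to -0.89 (adjusted p = 0.00067). The cause of these changes was not tested. Genes near or below the filter level are limited by the array's background.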

Other observations

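Of the lists not yet described, those of signal feedback, cell death and Th17 genes are given here by their counts, beside the 7.51% of all genes that rose and the 8.88% that fell. Of 26 genes that feed back on antigen and cytokine signals 2 rose and 3 fell. Ets2, a transcription factor downstream of MAP kinases, had 7.57, 7.71 and 7.69 in KO Th2 samples and 8.54, 8.38 and 8.65 in WT Th2 samples, a change of -0.87 (SE 0.10, adjusted p = 4.8e-07). Spred2, a brake on the same pathway, changed by -0.53 (SE 0.14, adjusted p = 0.0073). Of 20 genes of p53 and apoptosis 2 rose and 1 fell, among them Casp8, the initiator of death receptor signals, at 0.42 (SE 0.10, adjusted p = 0.0047). Of 16 Th17 genes 2 rose and 2 fell, and Il6ra, the receptor gene for interleukin-6, rose by 0.65 (SE 0.13, adjusted p = 0.00099).

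Further pairs of neighbours among the tested genes changed at least 2-fold, again picked after the values were seen. Htr1b, a serotonin receptor gene, had 9.07, 9.80 and 9.95 in KO and 10.22, 10.83 and 11.02 in WT, a change of -1.09 (SE 0.21, adjusted p = 0.00041). Myo6, its nearest tested neighbour on 1 side on chromosome 9, changed by -1.07 (SE 0.14). Gstk1, a glutathione transferase gene on chromosome 6, changed by -1.51 (SE 0.20, adjusted p = 4.2e-06). On chromosome 10, Chst11, which sulfates chondroitin, and Slc41a2, a magnesium transporter gene, rose by 1.66 (SE 0.23) and 1.24 (SE 0.18). On chromosome 2, Dapl1 and Tanc1 rose by 1.40 (SE 0.21) and 1.24 (SE 0.15).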
